A study of Homo sapiens with 2 samples.

Results

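Podocalyxin (PODXL) and 9 enzymes linked to keratan sulphate synthesis were compared between 2 substates of the human embryonic stem cell line H9. The R-10G antibody, whose staining the study used together with vimentin to tell the substates apart, recognises a keratan sulphate on the cell surface. The 10 genes were chosen as the carrier of that epitope and enzymes that build the chain or, for FUT8, act on the glycan that bears it. Every array probe whose RefSeq accession belongs to one of them was taken. They had 14 of the 58201 non-control probes of the array, and they are 10 of the 22439 genes that could be named on it. Both groups were cells of the same line, kept by the study in TeSR-E8 medium. The study moved cells from vitronectin to Matrigel at passage 35, which is also the passage of the substate 1 sample. Its text does not state the matrix of that array sample. The study described the 2 substates in culture on Matrigel. Substate 1, at passage 35, is the one bright for R-10G and nearly free of vimentin. Substate 2, at passage 50, grows more loosely and has the opposite balance of the 2 stains. Each group had 1 single-colour array of total RNA, so no difference has a replicate check and no test between substates was possible. Substate, passage and time on Matrigel, or the matrix itself, cannot be told apart. How the cells of a substate were separated for the arrays is not given in the sources used here. In such bulk RNA, fewer cells that express a gene and less RNA of it per cell cannot be told apart either.

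Keratan sulphate is a chain of alternating galactose and N-acetylglucosamine, that is, a sulphated poly-N-acetyllactosamine. N-acetylglucosaminyltransferases and galactosyltransferases lengthen it by turns, while sulphotransferases add sulphate to either sugar. The chain hangs from N-glycans or from mucin-type O-glycans of a carrier protein. Podocalyxin is a heavily glycosylated sialomucin of the CD34 family, known on kidney podocytes, on vascular endothelium and on pluripotent stem cells, where its glycans carry several of the surface epitopes used to recognise such cells.

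The arrays were of like quality, with 57.4% (substate 1) and 54.7% (substate 2) of non-control spots well above background and none saturated. The labelled cell type was checked against 6 pluripotency genes, which were measured on both arrays. POU5F1, NANOG, SOX2, LIN28A and DNMT3B differed by 0.18 to 0.42 on the log2 scale, and CRIPTO by -0.46. The median of the 6 genes, 0.23, depended on the scaling of bright probes, with 0.07 after quantile normalisation and 0.04 after loess centring. All 4 mesendoderm markers (TBXT, SOX17, GATA6 and EOMES) were well above background on neither array. Of the 4 neural markers, PAX6 was well above background on neither array by any of its 3 probes, whereas POU3F2 (at least 13.3-fold higher) and SOX1 (at least 1.71-fold higher) were so in substate 2 only, and DCX differed by 0.40. The part of such cells in the results below was not tested. The markers of the substates themselves differed on the arrays, namely VIM (vimentin), which was 5.76-fold higher in substate 2, ZEB1, a transcriptional repressor of epithelial genes (mean difference 2.54), and CDH1 (E-cadherin), 2.78-fold lower in substate 2.

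All 14 probes of the 10 genes were well above background on both arrays. None was 2-fold lower in substate 2, where 1.67% of the 33166 probes measured on at least 1 array were, and none was 2-fold higher, where 1.55% were. None passed the Z-score limits of the study either, -2 below and 2 above, which 3.3% and 3.03% of all probes did. The differences were therefore small, but 10 of the 14 probes were lower in substate 2, beside a background of 44% among all 29883 probes that both arrays measured. At the gene level 6 of the 10 genes were lower, against 40.2% of the 16001 named genes measured on both arrays. Under other scalings 6 to 8 of the 10 were lower, but the 40.2% belongs to the main scaling only. The 8 came from scaling on measured probes only, where the median over all named genes also fell, from 0.08 to 0.02. The median difference of the 10 genes was -0.23 on the log2 scale, beside a median of 0.08 over all those genes. Differences are given as substate 2 minus substate 1 of the log2 signal after the 75th percentile of each array was subtracted. Error within these arrays can be read from replicate spots. The scanner software also assigns an error to each intensity, for PODXL 11424 of 114240 in substate 1, which was not used in the counts below. For each probe, the SD that spot noise would give its difference was read from the replicated probes nearest in signal. It lay between 0.055 and 0.10 for the 14 probes. The CHST1 probes and the dimmer B3GNT7 probe were given the same value, 0.10, as far dimmer probes were. Their own spot noise may therefore be larger. In 11 of the 14 the difference was over 2 such SDs, as it was in 64.4% of all probes measured on both arrays, so a difference past spot noise is common here and says nothing about replicate cultures.

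**Figure D1:**
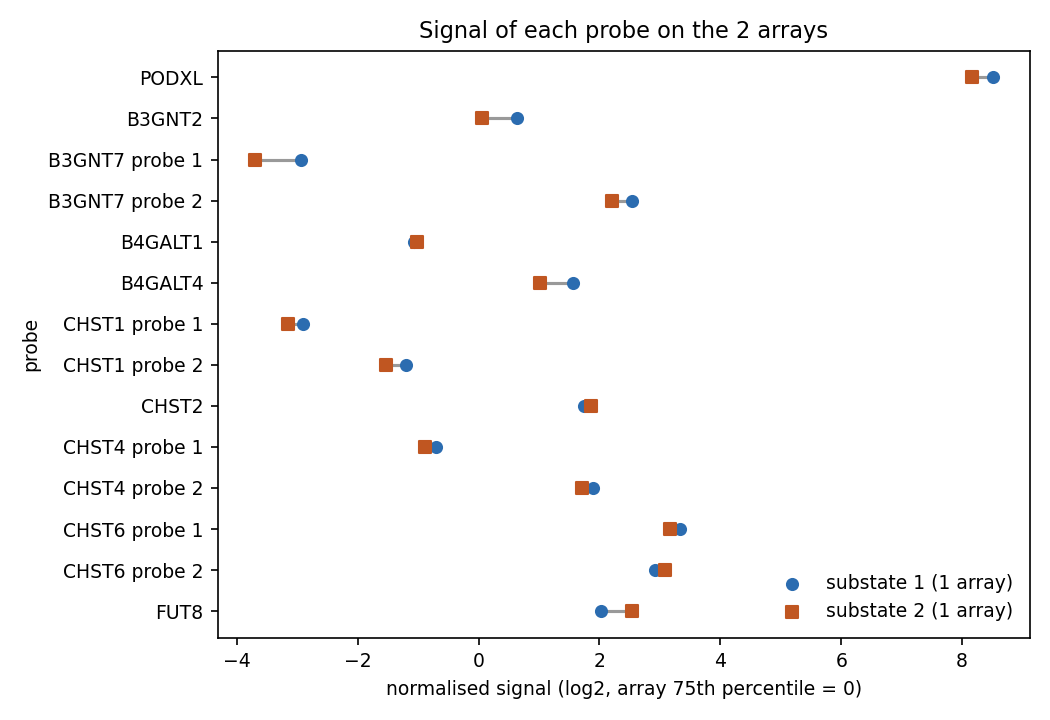
Normalised log2 signal of each of the 14 probes (rows) on the substate 1 array (circles) and the substate 2 array (squares), with 0 at the 75th percentile of each array. Lines join the 2 values of a probe, and positions of different probes are not comparable, since probes differ in binding; 10 squares lie to the left of their circles.

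PODXL, the carrier protein, had 1 probe (A_23_P215060) and gave an intensity of 114240 in substate 1 and 78890 in substate 2. The signal was bright on both arrays and lower in substate 2. After scaling, the log2 signals were 8.51 and 8.16, a difference of -0.35, which is 1.27-fold lower. Spot noise gave this difference an SD of 0.055, and the error that the scanner software assigns to the intensities was 11424 and 7889. Far dimmer probes, such as that of NANOG (11911 and 13991), were given the same SD, so it may not hold at this signal. The assigned error was not put on the log2 scale. Among all probes measured on both arrays the difference lay at percentile 15.2. Its size depended on how bright probes were scaled. Loess centring, which removes the trend of differences with signal, gave -0.57, and quantile normalisation gave -0.50. The sign held under the 7 alternatives tried, which ran from -0.57 to -0.30. The relative of podocalyxin in the CD34 family, PODXL2, was measured by 2 probes with differences of -0.10 and -0.09, and CD34 itself was well above background on neither array.

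Of the 4 enzymes that lengthen the chain, 3 were lower in substate 2, with differences of -0.57 to -0.54 on the log2 scale. Their rank among the 10 genes depended on the scaling, since FUT8 differed by more than any of them after centring on the array median (0.55). B3GNT2, the main N-acetylglucosaminyltransferase of poly-N-acetyllactosamine, read 484.7 in substate 1 and 287.4 in substate 2. It was 1.48-fold lower in substate 2 (difference -0.57, spot noise SD 0.092), at percentile 6.85 of measured probes. B4GALT4, a galactosyltransferase that favours sulphated acceptors, read 925.3 and 558.8. That was 1.45-fold lower (difference -0.54, spot noise SD 0.081), at percentile 7.56. These genes thus differed by nearly the same amount, and the alternatives left B3GNT2 between -0.63 and -0.43 and B4GALT4 between -0.60 and -0.50.

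B3GNT7, an N-acetylglucosaminyltransferase that also extends sulphated chains, had 2 probes, both lower in substate 2 but by different amounts. The bright probe (A_24_P913716) read 1820 in substate 1 and 1265 in substate 2, a difference of -0.34. The dim probe (A_23_P39755) read 40.8 and 21.2, a difference of -0.76, the largest among the 14 probes. Their gap of 0.42 compares with a median gap of 0.15 over the 3414 genes with 2 measured probes. Normexp background correction, which shrinks dim signals, brought the dim probe to -0.12, so the larger value depended on how background was treated. The mean of both probes was -0.55, at percentile 5.82 of named genes, and normexp moved it to -0.25.

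B4GALT1, the broadly expressed galactosyltransferase that also works on many other glycans, stood apart from those 3 enzymes. It read 148.7 in substate 1 and 136.1 in substate 2, which after scaling was a difference of 0.06 with a spot noise SD of 0.098. The difference was below the spot noise, and its sign turned to -0.00052 when the 75th percentile was taken over measured probes only.

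**Figure D2:**
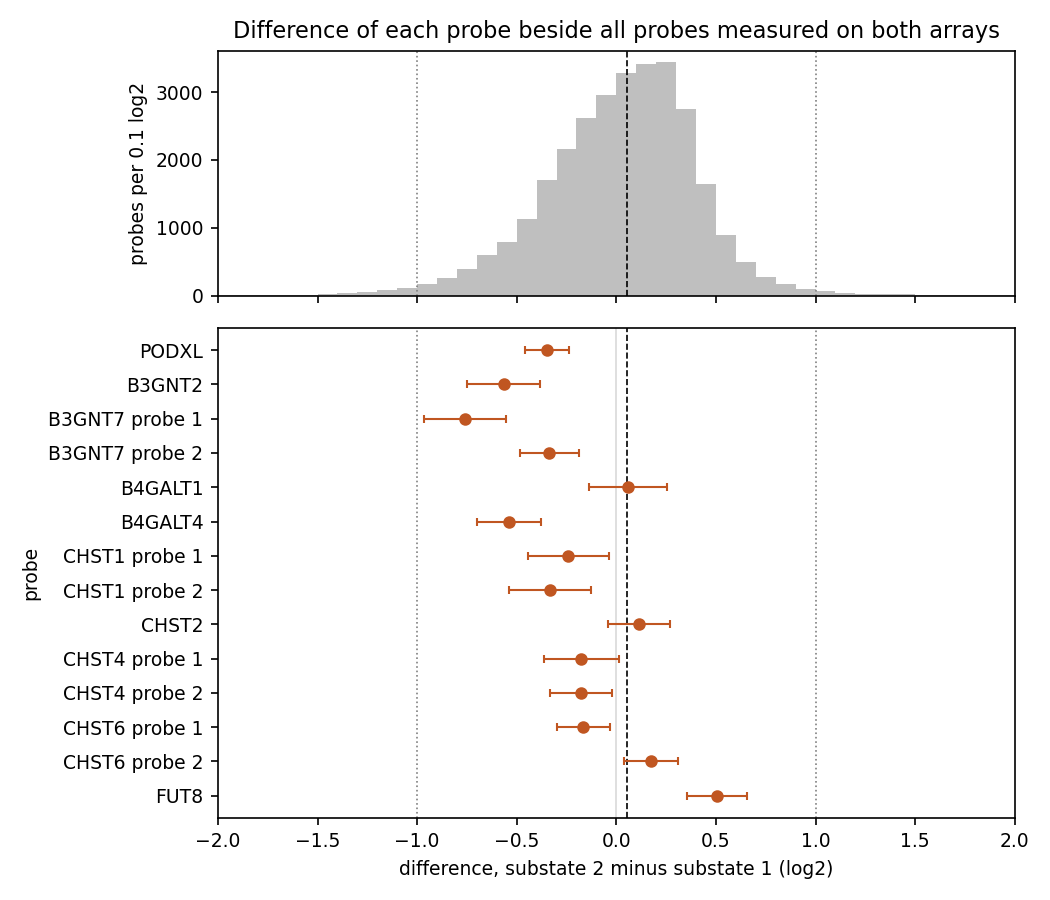
Top, number of probes measured on both arrays in steps of 0.1 of the log2 difference (substate 2 minus substate 1; 29883 probes, of which those within -2 to 2 are drawn). Bottom, the difference of each of the 14 probes with bars of 2 spot noise SDs; the dashed line is the median of all measured probes, 0.06, and dotted lines mark 2-fold, which no probe reached.

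The 4 sulphotransferases had a median difference of -0.09, beside -0.54 for the 4 enzymes above, and 2 of them were lower in substate 2 (3 after loess centring, quantile normalisation or with the percentile over measured probes). CHST1, which sulphates galactose, had 2 dim probes that were both lower in substate 2. Probe A_33_P3413355 read 135.9 and 94.7, a difference of -0.33. Probe A_23_P98205 read 41.9 and 31.1, a difference of -0.24, and under normexp its sign turned to 0.02. The mean over both was -0.29, or 1.22-fold lower, at percentile 15.5 of named genes.

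CHST2, CHST4 and CHST6 sulphate N-acetylglucosamine. The probe of CHST2 read 1054 in substate 1 and 1003 in substate 2, a difference of 0.12 after scaling and inside 2 spot noise SDs. CHST4, also known for sulphating the sialomucins of lymph node vessels, had 2 probes that differed by the same amount. One read 1164 and 904.9 and the other 191.6 and 148.9, and each was 1.13-fold lower in substate 2 (difference -0.18). With normexp these values came apart, to -0.38 and -0.06. CHST6, the sulphotransferase whose loss causes macular corneal dystrophy, had 2 probes that went opposite ways. Probe A_23_P106922 read 3148 and 2464 (difference -0.17), and probe A_33_P3366903 read 2364 and 2342 (difference 0.17). Their mean was 0.0045, and it took the other sign under quantile normalisation (-0.09) and loess centring (-0.10). No direction can be given for CHST6 from these probes. Binding of CHST6 probes to its close relative CHST5, itself measured at a difference of 0.12, was not tested.

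FUT8 was the one gene of the 10 whose mean was higher in substate 2 by more than 2 spot noise SDs. It adds the core fucose of N-glycans, and so acts on the glycan to which a chain is attached and not on the chain. Its probe (A_23_P313632) read 1282 in substate 1 and 1597 in substate 2. The difference was 0.50, or 1.42-fold higher in substate 2, with a spot noise SD of 0.075, and it lay at percentile 92.8 of measured probes. Under the alternatives it stayed between 0.42 and 0.55.

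Promoter sequence is shown for the 3 chain-lengthening genes that were lower together and for FUT8, which was higher, so that their upstream bases can be set side by side. Each is the 250 bases before the furthest upstream RefSeq start listed for the gene on GRCh38.p14, written 5′ to 3′ on the strand of the gene. Capitals mark CACCTG, the E-box that ZEB1 and other repressors bind, and GGGCGG, the GC box, each on either strand (CAGGTG and CCGCCC). No coordinates of the array itself are given, because it was annotated on hg19.
B3GNT2, chr2:62195865-62196114, forward strand: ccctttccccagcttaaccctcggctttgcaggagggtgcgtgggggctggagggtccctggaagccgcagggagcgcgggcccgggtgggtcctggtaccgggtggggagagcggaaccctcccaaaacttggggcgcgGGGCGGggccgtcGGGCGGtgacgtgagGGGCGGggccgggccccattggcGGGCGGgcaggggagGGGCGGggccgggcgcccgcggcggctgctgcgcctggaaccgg
B3GNT7, chr2:231395460-231395709, forward strand: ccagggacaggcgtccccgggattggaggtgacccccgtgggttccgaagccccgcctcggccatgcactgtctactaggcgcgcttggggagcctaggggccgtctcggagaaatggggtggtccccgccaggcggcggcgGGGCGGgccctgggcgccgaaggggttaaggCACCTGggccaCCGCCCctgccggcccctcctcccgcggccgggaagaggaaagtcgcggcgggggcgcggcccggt
B4GALT4, chr3:119240879-119241128, reverse strand: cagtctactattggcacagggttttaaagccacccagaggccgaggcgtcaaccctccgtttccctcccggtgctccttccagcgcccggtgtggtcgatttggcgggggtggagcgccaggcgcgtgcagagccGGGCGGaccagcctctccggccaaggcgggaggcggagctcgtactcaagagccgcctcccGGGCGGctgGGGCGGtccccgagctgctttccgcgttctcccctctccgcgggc
FUT8, chr14:65410342-65410591, forward strand: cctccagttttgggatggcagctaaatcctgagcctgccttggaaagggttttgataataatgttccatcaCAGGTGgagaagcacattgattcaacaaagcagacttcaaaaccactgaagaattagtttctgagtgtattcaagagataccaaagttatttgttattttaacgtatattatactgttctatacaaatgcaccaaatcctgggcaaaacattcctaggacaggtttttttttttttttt

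In these windows GC made up 77.6% of bases in B3GNT2, 75.6% in B3GNT7, 70% in B4GALT4 and 36% in FUT8, beside a median of 58% over 35116 listed starts. These values belong to the starts chosen, as the other FUT8 windows had 57.6% and 74% GC, and the other B3GNT2 window had 56.8%. High GC was not particular to the lowered genes. The windows of B4GALT1 had 78% and 80%, that of CHST2 78% and that of CHST6 69.2%. Those of CHST4, which was lower in substate 2, had 45.2% and 52%. CACCTG occurred once in B3GNT7, 77 bases before the start, and once in FUT8, 179 bases before it, and had no match in the windows of B3GNT2 and B4GALT4 or in the other FUT8 windows. Of the 10 genes 8 had listed starts, 13 in all, and 4 of these 13 windows held CACCTG, beside 17.5% of all listed starts. By gene that was 4 of the 8, among them FUT8, which was higher. GGGCGG was in 8 of the 13 windows, beside 42.6% of all, and in 7 of the 8 genes. The shares over all count starts and not genes. Windows of the same gene are not separate units, and those of B4GALT1 overlap. All of these are letter matches and not measured binding.

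The rest of the pathway was described by a list of 55 further genes, of which 54 had a named probe and 47 were measured on both arrays. Of the 47 genes 27 were lower and 20 higher in substate 2, with a median difference of -0.05, beside 0.08 over all named genes. Of all named genes measured on both arrays 40.2% were lower, the share to set beside each count of lower genes below. Of the 68 probes of the further list 10 were well above background on neither array and so could not be called. Of the rest 2 were 2-fold or more lower and 1 was 2-fold or more higher. Over all 33166 probes measured on at least 1 array the shares were 1.67% and 1.55%. Counts of direction moved with scaling, from 24 lower genes after centring on the array median to 33 when the percentile was taken over measured probes. The median over all named genes moved as well, from 0.13 to 0.02, and the 40.2% belongs to the main scaling.

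Genes that begin and extend mucin-type O-glycans, the kind of glycan for which podocalyxin is rich in sites, were lower by every measured member. These were 7 of 7 (the list has 9 genes), beside 40.2% of all named genes, with a median difference of -0.33. The count was 7 of 7 under the 7 alternatives as well, where the median over all named genes lay between 0.02 and 0.13. GALNT3, which starts O-glycans by adding N-acetylgalactosamine, read 311.1 in substate 1 and 116.1 in substate 2. Its difference of -1.23, or 2.35-fold lower, was larger than that of any of the 10 genes. GCNT1, which branches the O-glycan core, followed at -0.72. C1GALT1, which adds galactose to the first sugar, and its chaperone C1GALT1C1 differed by -0.33 and -0.28. The smallest differences were those of GALNT2 (-0.12) and GALNT1 (-0.14). Epithelial markers moved in the same direction, as CDH1, EPCAM, ESRP1 and CLDN6 were lower 4 of 4, with a median of -0.68 and a range of -1.47 to -0.05, none of them near background. Mesenchymal markers went the other way, as VIM, ZEB1, CDH2 and SNAI2 were higher 4 of 4, with a median of 1.67. Of all named genes measured on both arrays 9563 of 16001 were higher. SNAI2 was dim, with intensities of 19.9 and 17.7. Its difference of 0.02 lay below the median over all named genes (0.08) and turned negative with the percentile over measured probes. The part of either list in these differences was not tested.

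**Figure D3:**
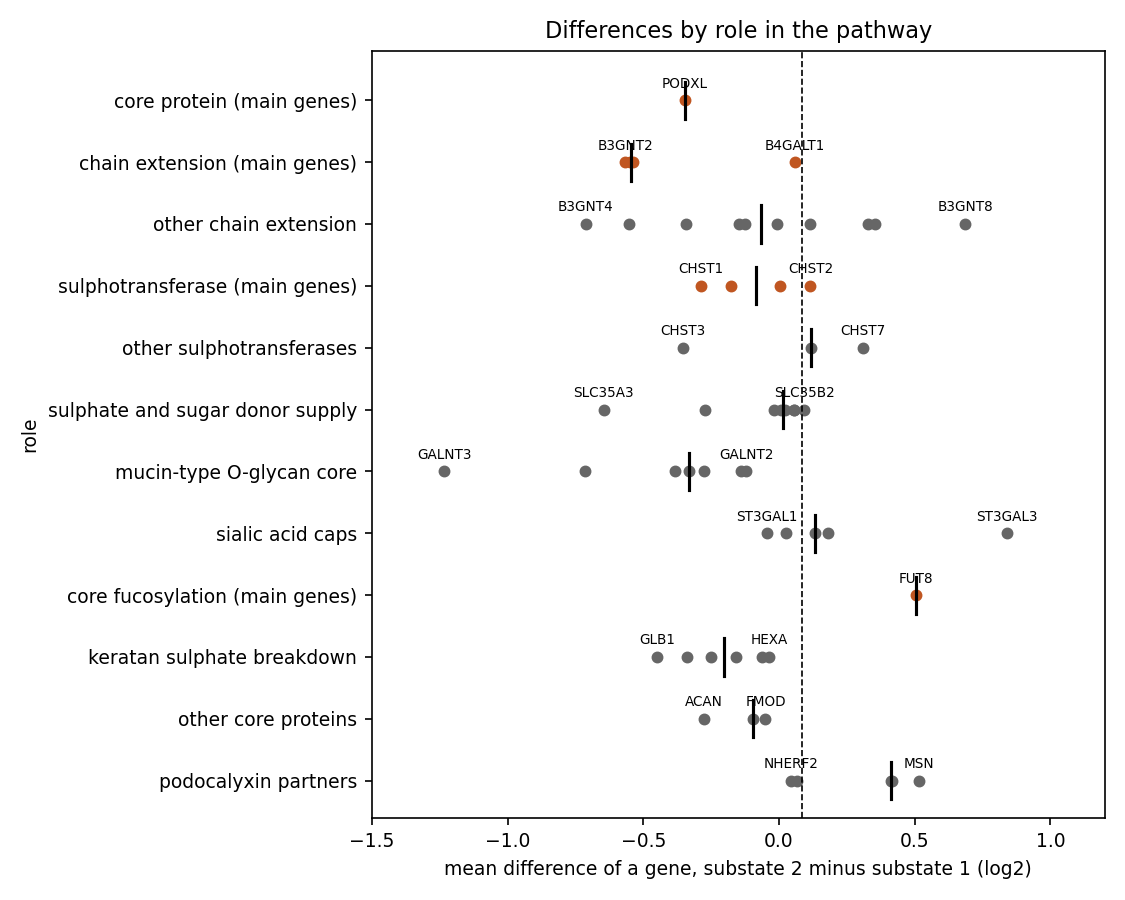
Mean difference of each gene measured on both arrays (points, log2, substate 2 minus substate 1) by role, with the median of a role as a vertical bar and the lowest and highest gene named. Orange points are the 10 genes and grey points the further pathway list; the dashed line is the median of all named genes, 0.08, and the 7 O-glycan genes all lie to its left.

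Further genes listed under chain lengthening went both ways, 6 lower and 4 higher of 10, with a median of -0.07. Whether each of them acts on keratan sulphate was not tested. The lowest was B3GNT4 (-0.71) and the highest B3GNT8 (0.69), both N-acetylglucosaminyltransferases. The other sulphotransferases ranged from CHST3 (-0.35) to CHST7 (0.31). Supply of donors, which covers the synthases of activated sulphate and the carriers that bring donors into the Golgi, had a median of 0.01 over 8 genes, which took the other sign after quantile normalisation, loess centring or normexp, or with the percentile over measured probes. PAPSS1 and PAPSS2, which make activated sulphate, differed by 0.06 and 0.0083 and changed sign under the same scalings. The largest difference was that of SLC35A3, the carrier of UDP-N-acetylglucosamine, at -0.65 over 2 probes that were both lower (-0.83 and -0.46), followed by SLC35B3, a carrier of activated sulphate, at -0.27.

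The listed sialyltransferases were led by ST3GAL3, which was higher in substate 2 by all 3 of its probes. These read 492.7, 80.0 and 55.0 in substate 1 and 698.7, 142.1 and 84.8 in substate 2. The differences were 0.69, 1.02 and 0.81, and the gene mean of 0.84 lay at percentile 98.4 of named genes. The other 4 sialyltransferases lay between -0.05 (ST3GAL1, positive under normexp) and 0.18 (ST3GAL2). Whether each of the listed sialyltransferases acts on keratan sulphate was not tested.

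The 6 lysosomal enzymes that break keratan sulphate down were all lower, beside 40.2% of all named genes, with a median of -0.20. The largest difference was that of GLB1, the beta-galactosidase (-0.45). HEXA, at -0.04, turned positive after centring on the array median and under normexp, so 5 of 6 were lower there. The 5 proteins that bind the tail of podocalyxin were all higher, as were 9563 of 16001 named genes, whose median was 0.08. MSN (moesin) differed by 0.52, RDX (radixin) by 0.41 and NHERF1, a scaffold, by 0.41. EZR (ezrin) at 0.06 and NHERF2 at 0.04 lay below that median, and each was of the other sign under at least 1 scaling.

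Other known carriers of keratan sulphate were mostly dim. The corneal proteoglycans LUM and KERA were well above background on neither array, nor were OMD and PRELP. The other corneal stroma markers were measured on both arrays and were lower in substate 2. PTGDS read 269.1 and 205.2 (difference -0.20), and 1 of the 2 probes of ALDH3A1 read 54.0 and 28.9 (difference -0.71), the other being well above background on neither array. FMOD differed by -0.05, positive under quantile normalisation and normexp, and the measured probe of ACAN (aggrecan) by -0.28. One probe of OGN (mimecan) read 81.8 in substate 1 and was not well above background in substate 2, at least 4.78-fold lower, whereas the other OGN probe was well above background on neither array. That bound therefore rests on 1 probe. Of markers of other cells that make podocalyxin, PECAM1 was well above background on neither array, whereas NPHS1 and CDH5 had intensities of 33.4 to 86.6.

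**Figure D4:**
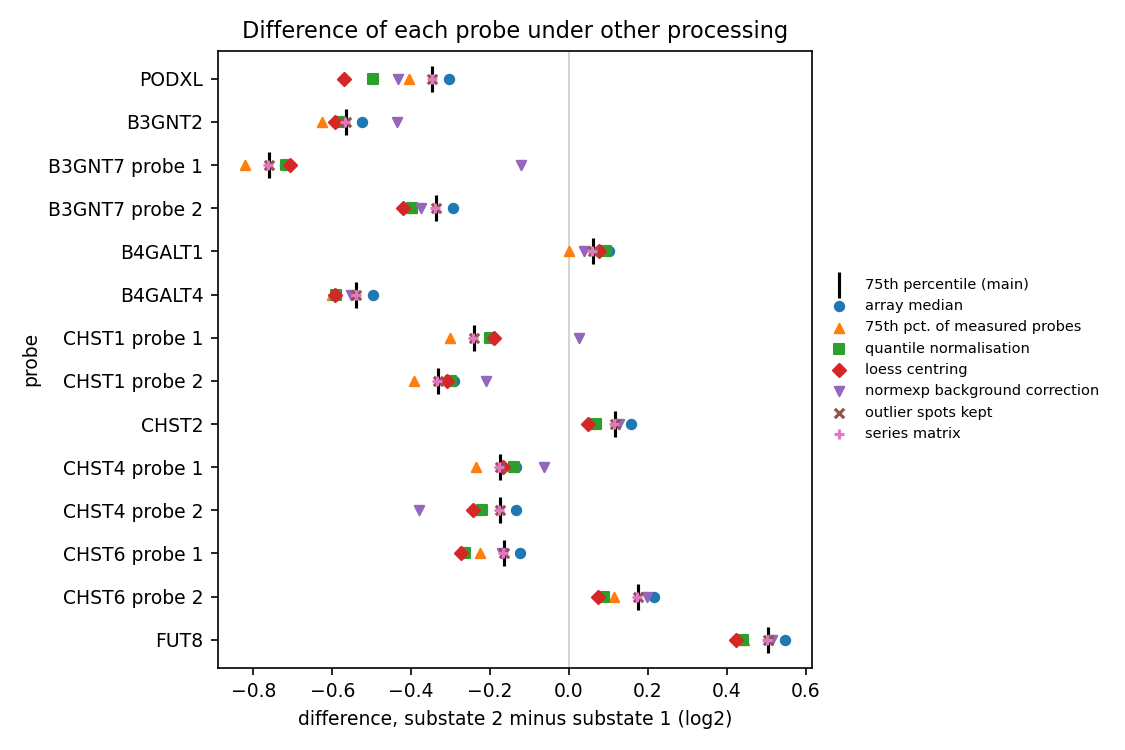
Difference of each of the 14 probes (log2, substate 2 minus substate 1) as reported (black bars) and under 7 other ways of processing (symbols). FUT8 lies right of 0 and PODXL, B3GNT2, B3GNT7, B4GALT4 and CHST4 left of 0 under each of them, whereas 1 probe of CHST1 and the B4GALT1 probe cross 0.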

How the data were processed

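The authors deposited 1 scanner table per array with the intensity of each spot. Background and spatial trends had been subtracted, and dim spots set to small positive values, by Feature Extraction 11.5.1.1 with protocol GE1_1105_Oct12, per the file headers. A second table that the authors deposited holds log2 values from GeneSpring GX, made by raising signals under 1 to that value and scaling to the 75th percentile. Differences from that table lay within 0.01 of those computed here, up to a constant, for 100% of 58201 probes.

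Here the same floor of 1 was applied (it touched 0 spots). After leaving out outlier spots, log2 intensities were averaged per probe and reduced by the 75th percentile of the non-control probes. Gene values are means over probes well above background on both arrays. A probe well above background on 1 array has a bound, the bright value against the higher of the dim value and the lowest signal well above background on the dim array, written as at least N-fold. With 1 array per group no test was run, and the number of arrays limits the precision. For the Z-score the mean over all probes (0.07) was subtracted from a difference and the result divided by the SD (0.63). Spot noise is the median SD of the difference over the 51 replicated probes nearest in signal, of 291. Probes were named by RefSeq accession through a GRCh38.p14 table (31104 of 58201 probes, 53.4%), so a gene can have probes not counted here.

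The 10 genes and the lists were chosen with earlier results of these data known. Named were the 10 genes with all their probes and, of the further list, genes with a 2-fold probe and those with the largest difference in each role. Other genes of that list were named after their values were seen, for their role or because their sign changed with the scaling. POU3F2, SOX1 and other markers belong to fixed marker lists, of which 1 gene is not reported here. Likeness of patterns cannot be measured over 2 arrays. Alternatives were centring on the median, the 75th percentile of measured probes, quantile normalisation, loess centring (span 0.3), normexp (limma 3.58.1, offset 50, on median spot and background signals), keeping outlier spots, the deposited log2 table, bounds, and the brightest probe of a gene. The steps were tested on simulated data.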

Additional observations from a re-analysis of the deposited data

How the results depend on the processing

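No paired analysis was possible because there was a single array for either substate, without replicate numbers. The median difference of the 10 genes, -0.23, moved to -0.16 under normexp background correction and stayed within the spot noise SD of 0.071 under the other alternatives. The median of the further pathway list stayed below 0 under the alternatives tried, and no setting brought any of the 14 probes to 2-fold. Taking the 75th percentile over measured probes turned B4GALT1 from 0.06 to -0.00052, and normexp turned the dim CHST1 probe (A_23_P98205) from -0.24 to 0.025. Normexp moved 6 further probes by more than their spot noise, loess centring 5 and quantile normalisation 3, without a change of sign. Keeping outlier spots and the deposited log2 table moved none, as 0 spots lay under the floor and few were outliers. Probes with intensities near 30 are limited by background treatment.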
